A study of Mus musculus with 4 samples.

Results

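The assembled mouse autosomes begin at 3 Mb on build mm8, and the 3 Mb that follow are the nearest assembled sequence to the centromere. Histone H3 methylation was measured there by chromatin immunoprecipitation with sequencing (ChIP-seq). The region was cut into 5 kb bins between 3000001 and 6000000 on chromosomes 1 to 19, and a bin was kept where any library had a read with a single location in the genome. This left 10672 of 11400 possible bins (93.6%), out of 494868 bins with a read over all chromosomes. The 9820 bins with a read between 20 and 23 Mb of the same chromosomes were set beside them. Apart from this need for a read, no measured level of a mark was used to choose the bins. Mean and median folds of single-location reads below are over bins with a read, so empty bins are left out of them.

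4 libraries were compared, 1 in each group. They were H3K9me3 in secondary mouse embryonic fibroblasts (MEF), H3K9me3 in MEF, H3K27me3 in MEF and H3K4me3 in MEF. The MEF labels give no strain, age or treatment. Secondary MEF were harvested 13.5 days post coitum from chimeras made by injecting induced pluripotent stem cells with doxycycline-inducible Oct4, Klf4 and Sox2 and a selectable Oct4 cassette into BDF2 blastocysts. Puromycin at 2 µg/ml for 48 hours selected for descendants of the injected cells, so any host cells that survived would still be in the library. No label states that doxycycline was given to the harvested fibroblasts. A single antibody lot served both H3K9me3 libraries. By the run names, the 3 MEF libraries shared a flow cell and the secondary MEF library came from another, so cell source and flow cell cannot be told apart. With 1 library per group no difference has a replicate check. Every interval below covers counting error only, and what is compared is libraries rather than conditions. PCR copies are not independent molecules, and these reads carry no molecular identifiers. The labelled cell types were not checked against marker genes, because no annotation on mm8 was used here.

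Mouse chromosomes are telocentric: the centromere lies at one end, in long arrays of minor and major satellite repeats that the assembly leaves as a gap. Major satellite forms the pericentromeric heterochromatin. It carries H3K9me3, laid down there by the Suv39h methyltransferases and bound by heterochromatin protein 1. H3K27me3 is laid down by Polycomb repressive complex 2 over silent developmental genes, and H3K4me3 marks active and poised promoters. Near a centromere, assembled sequence often holds satellite fragments and segmental duplications. A short read from such sequence may have many locations, and copies missing from the assembly may all pile onto the copy that is present.

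Reads with a single location in the binned genome numbered 7985901 for secondary MEF H3K9me3, 8912337 for MEF H3K9me3, 9782554 for H3K27me3 and 12244567 for H3K4me3, a mean of between 16.1 and 24.7 reads per bin. Levels below are folds over that library mean. The proximal bins held 176604 of these reads for secondary MEF H3K9me3, 189782 for MEF H3K9me3, 185292 for H3K27me3 and 331489 for H3K4me3. Of the proximal reads between 89.5% and 96.2% lay at distinct positions and strands, against 91.4% to 98.0% over the genome.

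Taken as a whole, the proximal 3 Mb stood slightly above the 20 to 23 Mb bins in every library. For H3K27me3 this depended on which chromosomes were counted. Secondary MEF H3K9me3 averaged 1.03-fold over the library mean in the proximal bins and 0.843-fold at 20 to 23 Mb, a ratio of 1.22 (95% interval 1.21 to 1.22). MEF H3K9me3 averaged 0.987-fold and 0.845-fold, a ratio of 1.17 (1.16 to 1.18). MEF H3K27me3 averaged 0.878-fold and 0.789-fold, a ratio of 1.11 (1.11 to 1.12), but without chromosome 11 its ratio was 1.001 (0.994 to 1.008). Without chromosomes 7, 8 and 14, which had few bins with a read in 1 of the windows, it was 1.22 (1.21 to 1.23). Leaving out chromosome 11 together with those was not tested. MEF H3K4me3 averaged 1.26-fold and 0.901-fold, the highest of the 4 ratios at 1.39 (1.39 to 1.40). Chromosome 19 held 70915 of its 331489 proximal reads in 580 of the 10672 bins, and the ratio without chromosome 19 was not computed. For secondary MEF H3K9me3 the median bin stood at 0.744-fold in the proximal bins and 0.682-fold at 20 to 23 Mb, a smaller gap than between the means. In the MEF libraries the median bin did not differ between the windows. For MEF H3K9me3 it was 0.722-fold in both windows, for H3K27me3 0.556-fold in both and for H3K4me3 0.283-fold in both. In those libraries the difference between the means was set by a minority of bins.

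The chromosomes did not share a direction. Chromosomes 7 and 8 had 36 and 91 bins with a read at 20 to 23 Mb and chromosome 14 had 194 proximal bins, so ratios by chromosome were read on the other 16. The proximal level was above the level at 20 to 23 Mb on 10 of the 16 for secondary MEF H3K9me3, with 5 below. It was above on 10 with 6 below for MEF H3K9me3, above on 8 with 8 below for MEF H3K27me3, and above on 11 with 5 below for MEF H3K4me3. With 1 read per position MEF H3K9me3 on chromosome 5 turned from above (1.04) to below (0.940), and the other 15 chromosomes kept their side for that library. Chromosomes 2, 6, 11, 12, 15, 17, 18 and 19 were above in all 4 libraries, and chromosomes 1, 3, 9, 10 and 13 were below in all 4. Chromosome 17 had the highest ratio for secondary MEF H3K9me3 (2.74), MEF H3K9me3 (3.19) and MEF H3K27me3 (5.01), and chromosome 19 the highest for MEF H3K4me3 (9.03). On chromosome 17 secondary MEF H3K9me3 was 1.24-fold in the proximal bins and 0.454-fold at 20 to 23 Mb. MEF H3K9me3 was 1.25 and 0.392-fold in these windows, and H3K27me3 1.13 and 0.225-fold. The proximal levels of chromosome 11 were higher, at 2.73-fold for secondary MEF H3K9me3, 2.71-fold for MEF H3K9me3 and 2.51-fold for H3K27me3. Chromosome 9 had the lowest ratio in each library, at 0.356 for secondary MEF H3K9me3, 0.418 for MEF H3K9me3, 0.201 for H3K27me3 and 0.124 for H3K4me3. Its proximal levels lay between 0.324-fold (H3K27me3) and 0.669-fold (MEF H3K9me3). At 20 to 23 Mb its levels lay between 1.60-fold (MEF H3K9me3) and 3.05-fold (H3K4me3). These extreme ratios thus depended on the level at 20 to 23 Mb as well. Read coverage, gene content and copy number along chromosomes were not tested as sources.

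Read by distance from 3 Mb, the region had 2 unlike parts. In the first 100 kb only 270 of 380 possible bins (71.1%) had a read in any library, against 94.4% from 100 kb to 3 Mb. The first 100 kb nevertheless held the highest mean H3K9me3. Secondary MEF H3K9me3 averaged 3.94-fold over the library mean (3.88 to 4.0) and MEF H3K9me3 also 3.94-fold (3.88 to 3.99). MEF H3K27me3 averaged 1.83-fold (1.80 to 1.87) and MEF H3K4me3 1.67-fold (1.64 to 1.70). With 1 read counted per position and strand, the means were 3.33-fold for secondary MEF H3K9me3, 3.05-fold for MEF H3K9me3, 1.65-fold for H3K27me3 and 1.43-fold for H3K4me3.

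The typical bin of the first 100 kb was nearly empty. Its median was 0.186-fold for secondary MEF H3K9me3, 0.167-fold for MEF H3K9me3, 0.101-fold for H3K27me3 and 0.0404-fold for H3K4me3. From 100 to 500 kb the means were 0.824-fold for secondary MEF H3K9me3, 0.750-fold for MEF H3K9me3, 0.650-fold for H3K27me3 and 1.24-fold for H3K4me3. Both H3K9me3 means were below the library mean there. The medians were 0.558-fold for secondary MEF H3K9me3, 0.555-fold for MEF H3K9me3, 0.405-fold for H3K27me3 and 0.242-fold for H3K4me3. From 2 to 3 Mb the medians were 0.868-fold for secondary MEF H3K9me3, 0.833-fold for MEF H3K9me3, 0.607-fold for H3K27me3 and 0.364-fold for H3K4me3. The median of the first 100 kb was thus below the medians farther out. Within the first 100 kb it did not fall toward 3 Mb: the bins of the first 5 kb had a median of 0.310-fold for secondary MEF H3K9me3 and 0.444-fold for MEF H3K9me3, and those from 50 to 100 kb had 0.186-fold for secondary MEF and 0.111-fold for MEF. The share of bins with a read was 78.9% in the first 5 kb (15 of 19 bins), 63.2% at 5 to 10 kb, 66.7% at 10 to 25 kb, 64.2% at 25 to 50 kb and 75.8% at 50 to 100 kb. It was 87.9% at 100 to 200 kb and 96.1% at 500 kb to 1 Mb. The mean was instead highest in the first 100 kb in all 4 libraries, since a few bins there were far above the rest.

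**Figure D1:**
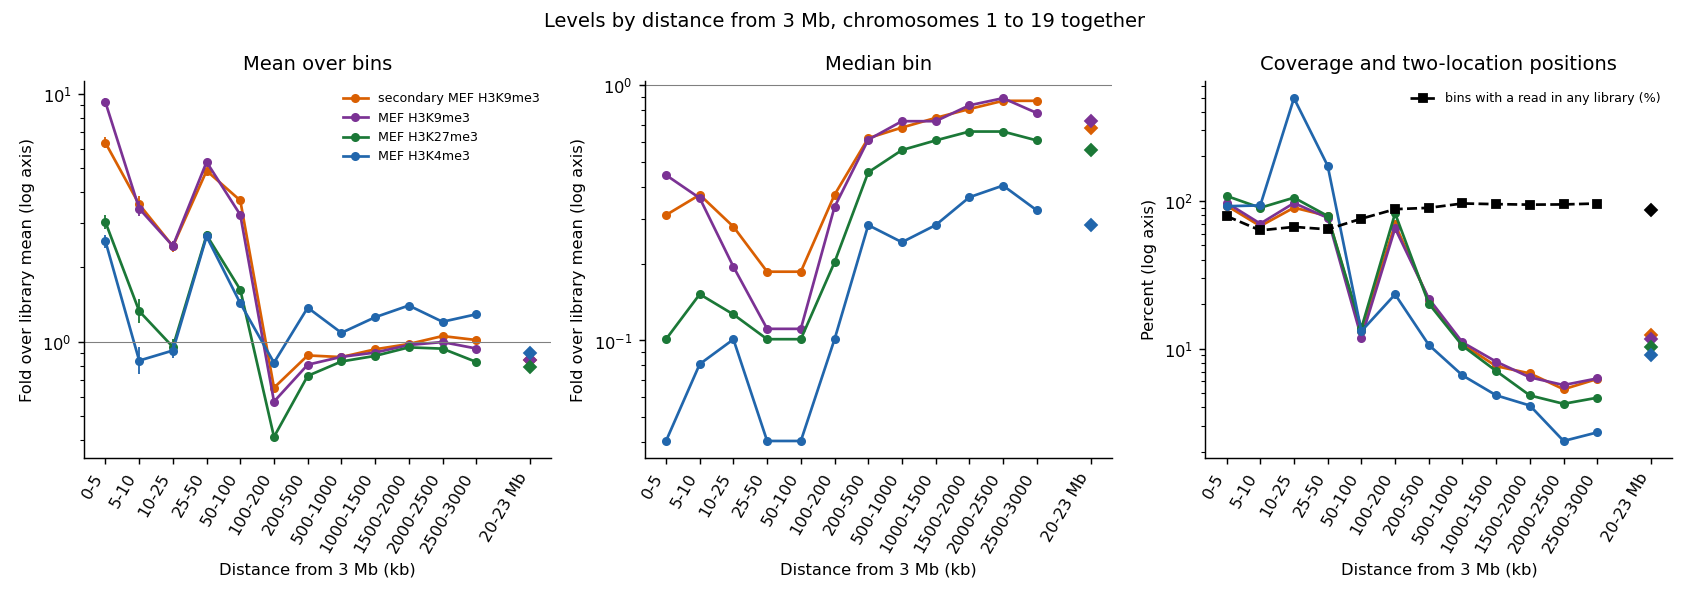
Mean fold (left, with 95% counting intervals), median fold (middle), and the percent of bins with a read together with two-location positions as a percent of single-location reads (right), by distance from 3 Mb in kb, with 20 to 23 Mb as diamonds; all vertical axes are logarithmic and lines stand for the 4 libraries. Mean H3K9me3 is 3.94-fold in each H3K9me3 library over the first 100 kb while the medians are 0.186-fold (secondary MEF) and 0.167-fold (MEF).

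Reads with exactly 2 locations mark duplicated sequence, and they were plentiful close to 3 Mb. In the first 100 kb the positions they listed, as a percent of the reads with a single location, came to 47.7% for secondary MEF H3K9me3, 52.4% for MEF H3K9me3, 53.2% for H3K27me3 and 116% for H3K4me3. For H3K4me3, 2 bins held 3775 and 3760 of the 12991 positions. At 20 to 23 Mb the share was between 9.06% (H3K4me3) and 12.3% (secondary MEF H3K9me3), so the first 100 kb was above it in all 4 libraries. The share did not fall steadily with distance. From 50 to 100 kb it was 13.3% for secondary MEF H3K9me3, 11.9% for MEF H3K9me3, 13.7% for H3K27me3 and 13.1% for H3K4me3. From 100 to 200 kb it was 69.4% for secondary MEF H3K9me3, 65.2% for MEF H3K9me3, 82.4% for H3K27me3 and 23.3% for H3K4me3. This was above the first 100 kb as a whole in every library but H3K4me3. The chromosome 6 bin from 3150001 held 672 of 2438 such positions for secondary MEF H3K9me3 and 465 of 2249 for MEF H3K9me3. It held 875 of 2245 for H3K27me3 and 294 of 1584 for H3K4me3, and the share without it was not computed. Against the library mean of such positions, the first 100 kb stood at 12.5 to 29.8-fold and 100 to 200 kb at 3.64 to 5.62-fold. From 200 to 500 kb the share was between 10.6% (H3K4me3) and 21.8% (MEF H3K9me3), and over all of 100 kb to 3 Mb between 5.18% (H3K4me3) and 9.88% (secondary MEF H3K9me3).

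The first 100 kb differed from chromosome to chromosome by more than 2 orders of magnitude. Chromosome 11 averaged 33.9-fold for secondary MEF H3K9me3, 30.1-fold for MEF H3K9me3, 15.3-fold for MEF H3K27me3 and 11.2-fold for MEF H3K4me3. Chromosome 9 averaged 7.23-fold for secondary MEF H3K9me3, 10.5-fold for MEF H3K9me3, 3.62-fold for H3K27me3 and 2.85-fold for H3K4me3. Chromosome 5 averaged 3.88-fold for secondary MEF H3K9me3, 6.04-fold for MEF H3K9me3, 2.04-fold for H3K27me3 and 1.68-fold for H3K4me3. On these 3 chromosomes all 4 libraries were above their own genome mean, and both H3K9me3 libraries were above the other marks. The share of first 100 kb reads that lay on chromosome 11 was 63.7% for secondary MEF H3K9me3, 56.7% for MEF H3K9me3, 62.0% for H3K27me3 and 49.5% for H3K4me3. On chromosomes 5, 9 and 11 together it was 83.2% for secondary MEF H3K9me3, 85.5% for MEF H3K9me3, 83.2% for H3K27me3 and 68.1% for H3K4me3. Without those 3 chromosomes the mean of the first 100 kb was below the library mean in every library, at 0.837-fold for secondary MEF H3K9me3, 0.720-fold for MEF H3K9me3, 0.389-fold for H3K27me3 and 0.671-fold for H3K4me3.

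The other chromosomes fell into 4 kinds. Chromosomes 3 and 4 were above the library mean for H3K9me3 only, at 1.31-fold or more in both H3K9me3 libraries. Chromosome 4 averaged 4.16-fold for secondary MEF H3K9me3, 3.60-fold for MEF H3K9me3, 0.982-fold for H3K27me3 and 0.919-fold for H3K4me3. Chromosome 3 averaged 1.69-fold for secondary MEF H3K9me3, 1.31-fold for MEF H3K9me3, 0.362-fold for H3K27me3 and 0.313-fold for H3K4me3. Chromosome 17 was well above the mean for H3K4me3 only, at 1.03-fold for secondary MEF H3K9me3, 0.754-fold for MEF H3K9me3, 0.599-fold for H3K27me3 and 4.39-fold for H3K4me3. With 1 read per position its H3K4me3 was 2.30-fold. Chromosomes 2, 10 and 18 lay between 0.278 and 1.22-fold in the 4 libraries. Chromosomes 1, 6, 7, 8, 12, 13, 14, 15, 16 and 19 lay at 0.346-fold or less in every library. Chromosomes 14 and 19 had a read in just 2 and 3 of their 20 bins. MEF H3K9me3 and MEF H3K27me3 had no read there on chromosome 14, which allows up to 0.0833-fold for MEF H3K9me3 and 0.0759-fold for H3K27me3 at 3 reads. MEF H3K27me3 and MEF H3K4me3 had none on chromosome 19, which allows up to 0.0506-fold for H3K27me3 and 0.0404-fold for H3K4me3. On those 10 chromosomes the depth was too low to compare the marks bin by bin.

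**Figure D2:**
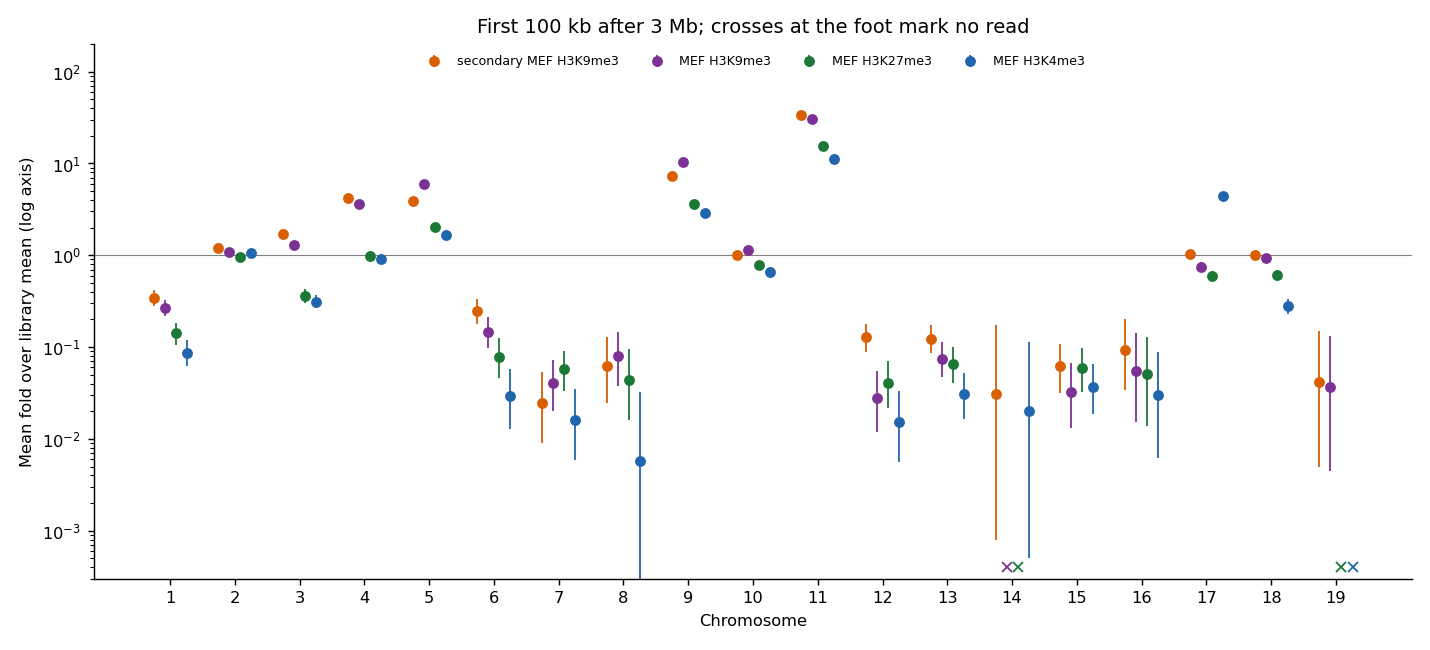
Mean fold over the library mean in the first 100 kb of each chromosome (logarithmic axis), with 95% counting intervals; points are the 4 libraries and crosses at the foot mark no read. Chromosome 11 stands highest for every library, between 33.9-fold (secondary MEF H3K9me3) and 11.2-fold (MEF H3K4me3), and 10 chromosomes lie at 0.346-fold or less.

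Within the first 100 kb the high signal sat in a few sharply bounded blocks. A bin at 5-fold or more in all 4 libraries occurred 20 times in the proximal region, and each was within 100 kb of 3 Mb, on chromosomes 5 (1 bin), 9 (5 bins) and 11 (14 bins). Over the genome such bins made up 0.0166% of bins, or 82 in all, of which the proximal region held 24.4%. No bin from 20 to 23 Mb reached this level. With 1 read per position the proximal count was 19, and at 3-fold or more it was 43.

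The chromosome 11 block ran over 70 kb, from 3030001 to 3100000. Across its 14 bins secondary MEF H3K9me3 averaged 47.5-fold, MEF H3K9me3 42-fold, MEF H3K27me3 21.4-fold and MEF H3K4me3 14.8-fold. Counting 1 read per position barely changed this, giving 43.1-fold for secondary MEF H3K9me3, 38.2-fold for MEF H3K9me3, 20.4-fold for H3K27me3 and 15-fold for H3K4me3, and between 88.7% and 92.8% of the reads were at distinct positions. Both strands were read about equally, with 50.6% of secondary MEF and 50.2% of MEF H3K9me3 reads on the plus strand. The edges were steep. The bin from 3020001 had 1.05-fold for secondary MEF H3K9me3, 0.555-fold for MEF H3K9me3, 0.506-fold for H3K27me3 and 9.62-fold for H3K4me3. The bin from 3025001 had 5.27-fold for secondary MEF H3K9me3, 4.16-fold for MEF H3K9me3, 2.63-fold for H3K27me3 and 3.76-fold for H3K4me3. In the block, the bin from 3030001 had 30.3-fold for secondary MEF H3K9me3, 32.9-fold for MEF H3K9me3, 17.2-fold for H3K27me3 and 10.5-fold for H3K4me3. At this edge H3K4me3 had a pile of its own before the block began. At the far edge the bin from 3095001 had 36.4-fold for secondary MEF H3K9me3, 37.3-fold for MEF H3K9me3, 14.8-fold for H3K27me3 and 11-fold for H3K4me3. The bin from 3100001 had 2.11-fold for secondary MEF H3K9me3, 0.833-fold for MEF H3K9me3, 1.21-fold for H3K27me3 and 21.1-fold for H3K4me3. MEF H3K4me3 was thus the one library above 5-fold in the bins from 3020001 and 3100001, while in the bin from 3025001, next to the block, both H3K9me3 libraries were above it. The crest for H3K9me3 was the bin from 3050001, at 86.4-fold in secondary MEF (1395 reads) and 57.5-fold in MEF (1036 reads). The crest for H3K27me3 was the bin from 3040001, at 37.0-fold, and that for H3K4me3 the bin from 3090001, at 36.9-fold.

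On chromosome 5 the block was the first bin alone, from 3000001 to 3005000. It held 974 reads for secondary MEF H3K9me3, 1733 for MEF H3K9me3, 628 for H3K27me3 and 659 for H3K4me3. These were 60.4-fold for secondary MEF H3K9me3, 96.2-fold for MEF H3K9me3, 31.8-fold for H3K27me3 and 26.6-fold for H3K4me3, and the bin was the highest proximal bin of MEF H3K9me3. The percent of these reads at distinct positions was 60.8% for secondary MEF H3K9me3, 45.0% for MEF H3K9me3, 68.2% for H3K27me3 and 66.2% for H3K4me3. Repeated positions were thus common in this bin, most of all in MEF H3K9me3. Counting 1 read per position gave 37.5-fold for secondary MEF H3K9me3, 44.2-fold for MEF H3K9me3, 23.1-fold for H3K27me3 and 19.3-fold for H3K4me3. The reads with 2 locations listed another 857 positions for secondary MEF H3K9me3, 1502 for MEF H3K9me3, 585 for H3K27me3 and 533 for H3K4me3 in that bin.

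On chromosome 9 the high bins were 3000001 to 3005000, 3015001 to 3020000 and 3025001 to 3040000. The last of these averaged 27.8-fold for secondary MEF H3K9me3, 43.9-fold for MEF H3K9me3, 15-fold for H3K27me3 and 12-fold for H3K4me3. The percent of reads at distinct positions was 45.0% for secondary MEF H3K9me3, 34.5% for MEF H3K9me3, 53.8% for H3K27me3 and 53.5% for H3K4me3. At the next bin, from 3040001, the signal dropped at once, to between 0 and 3 reads in each library. The blocks on chromosomes 5 and 9 thus held many reads at repeated positions, unlike the block on chromosome 11. Whether these blocks stand for collapsed repeat copies, for local enrichment or for both was not tested, since no input library was used here.

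In all 20 bins of these blocks both H3K9me3 libraries were above both other marks, and in 19 of 20 MEF H3K27me3 was above MEF H3K4me3. The exception was the chromosome 11 bin from 3090001, with 19.8-fold H3K27me3 and 36.9-fold H3K4me3. MEF H3K9me3 exceeded MEF H3K4me3 by 1.54 to 4.11 times. Secondary MEF H3K9me3 was above MEF H3K9me3 in 9 of the 20.

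**Figure D3:**
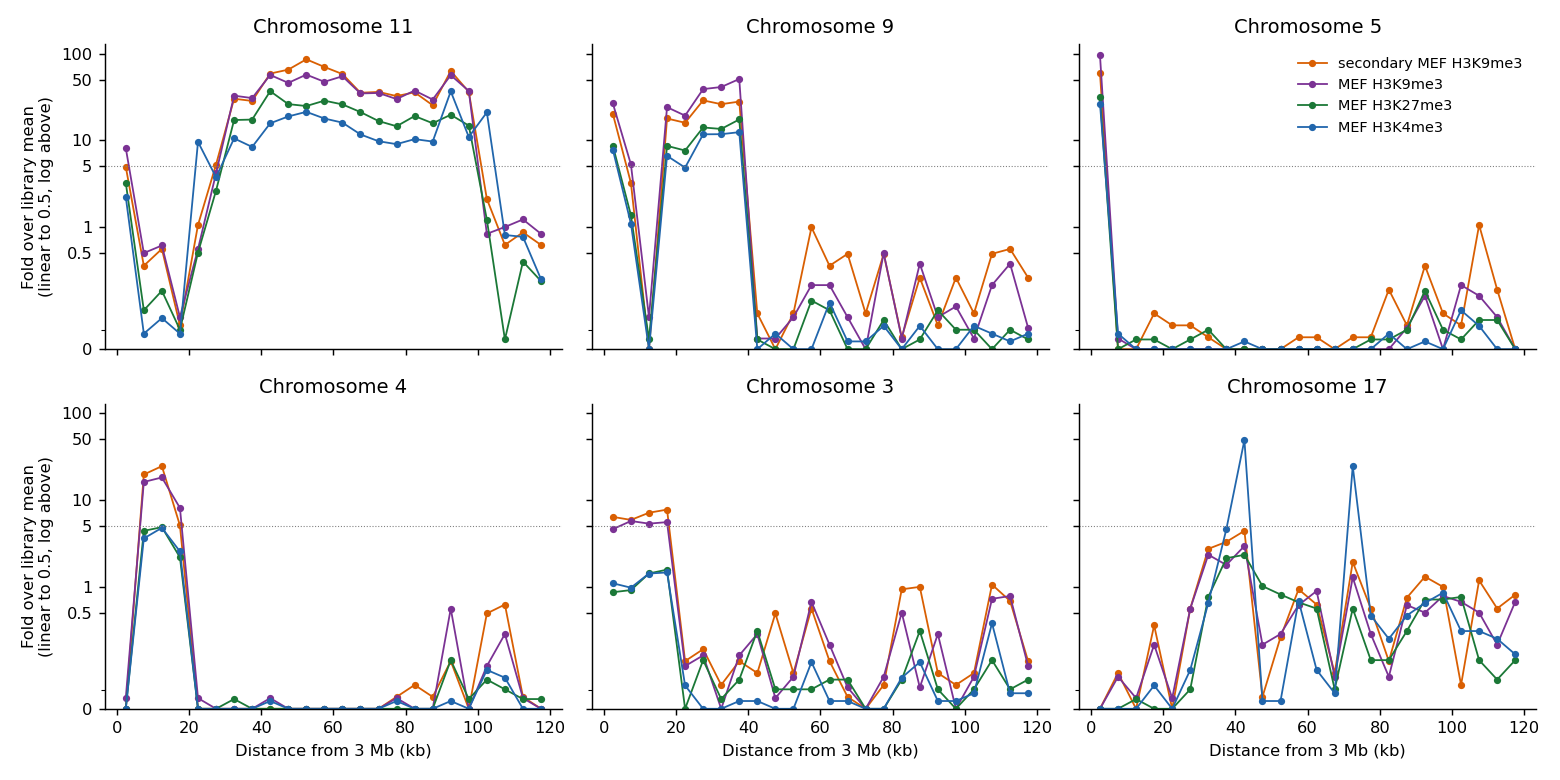
Fold over the library mean in each 5 kb bin of the first 120 kb on 6 chromosomes; the horizontal axis is distance from 3 Mb in kb, the vertical axis is linear to 0.5 and logarithmic above, the dotted line is 5-fold and lines are the 4 libraries. The chromosome 11 block spans 70 kb, chromosomes 3 and 4 are highest for H3K9me3, and chromosome 17 has H3K4me3 peaks of 49.3 and 24.7-fold, which are 11.1 and 23.6-fold with 1 read per position.

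Among bins called in both H3K9me3 libraries, H3K9me3 stood furthest above the other marks on chromosomes 3 and 4, though on chromosome 4 these were raised as well. On chromosome 4 the bin from 3010001 had 24.6-fold secondary MEF H3K9me3 and 18.2-fold MEF H3K9me3, against 4.86-fold H3K27me3 and 4.77-fold H3K4me3. The bin before it, from 3005001, had 19.7-fold for secondary MEF H3K9me3, 16.2-fold for MEF H3K9me3, 4.40-fold for H3K27me3 and 3.60-fold for H3K4me3. On chromosome 3 the first 4 bins, from 3000001 to 3020000, held between 83 and 125 reads in each H3K9me3 library and between 17 and 36 in the other libraries. The chromosome 3 bin from 3005001 had 5.89-fold for secondary MEF H3K9me3, 5.72-fold for MEF H3K9me3, 0.911-fold for H3K27me3 and 0.970-fold for H3K4me3. The bin from 3000001 had 6.38-fold for secondary MEF H3K9me3, 4.61-fold for MEF H3K9me3, 0.860-fold for H3K27me3 and 1.09-fold for H3K4me3. The bin from 3010001 had 7.13-fold for secondary MEF H3K9me3, 5.33-fold for MEF H3K9me3, 1.42-fold for H3K27me3 and 1.41-fold for H3K4me3. These 5 bins had the highest ratio of H3K9me3 to the other marks among proximal bins called in both H3K9me3 libraries, with the chromosome 3 bin from 3005001 the highest at 5.90 (the smaller H3K9me3 fold over the larger of the other marks). Most of their reads were at distinct positions: 354 of 397 secondary MEF and 294 of 328 MEF H3K9me3 reads in the chromosome 4 bin from 3010001, and 90 of 95 secondary MEF and 98 of 103 MEF reads in the chromosome 3 bin from 3005001.

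The ratio of H3K9me3 to another mark in the same bins compares libraries over the same sequence, so coverage common to all libraries cancels in it. The way each library spreads its reads between its high bins and the rest does not cancel. In the first 100 kb the ratio to H3K4me3 was 2.36 for secondary MEF and 2.36 for MEF (2.30 to 2.41). At 20 to 23 Mb it was 0.936 for secondary MEF and 0.938 for MEF. The ratio to H3K27me3 was 2.15 for secondary MEF and 2.15 for MEF in the first 100 kb, and 1.07 for both at 20 to 23 Mb. The 2 H3K9me3 libraries thus gave nearly the same ratios over all reads, but not with 1 read per position. The ratio to H3K4me3 in the first 100 kb was then 2.33 (2.27 to 2.40) for secondary MEF and 2.14 (2.08 to 2.19) for MEF, and the ratio to H3K27me3 was 2.03 for secondary MEF and 1.85 for MEF. From 100 to 500 kb the ratio to H3K4me3 was 0.666 for secondary MEF and 0.606 for MEF, and the ratio to H3K27me3 was 1.27 for secondary MEF and 1.15 for MEF. Over the 3 steps from 500 kb to 3 Mb the ratio to H3K4me3 was 0.798, 0.720 and 0.830 for secondary MEF and 0.800, 0.706 and 0.776 for MEF. Summed over chromosomes, the ratios to both other marks were therefore above 1 in the first 100 kb and in none of the other 4 steps. Sums weigh the highest bins most. In the median bin both H3K9me3 libraries stood above both other marks at 20 to 23 Mb as well. Those medians were 0.682-fold for secondary MEF, 0.722-fold for MEF, 0.556-fold for H3K27me3 and 0.283-fold for H3K4me3. A ratio above 1 thus does not by itself mean raised H3K9me3. Single chromosomes departed from the pattern of the sums. On chromosome 1 from 100 kb to 3 Mb the secondary MEF ratio was 1.80 to H3K4me3 and 1.24 to H3K27me3, and the MEF ratio 1.67 to H3K4me3 and 1.16 to H3K27me3. On chromosome 3 over the same distance the secondary MEF ratio was 1.59 to H3K4me3 and 1.52 to H3K27me3, and the MEF ratio 1.47 to H3K4me3 and 1.40 to H3K27me3.

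The higher summed ratio of the first 100 kb did not come from chromosomes 5, 9 and 11 alone. Over the chromosomes with at least 50 reads in the 2 libraries together, a minimum chosen after the values were seen, the ratio to H3K4me3 in the first 100 kb lay above that chromosome's own ratio at 20 to 23 Mb, with intervals apart, on 9 of 11 for secondary MEF and on 8 of 10 for MEF. It lay below on chromosome 17. A higher ratio did not need a high H3K9me3 level. Chromosomes 1 and 6 were among the 9 for secondary MEF, with H3K9me3 there below the library mean. The ratio to H3K27me3 lay above on 10 of 12 for secondary MEF and on 8 of 10 for MEF, and the MEF ratio lay below on chromosome 17. The highest ratio to H3K4me3 was that of secondary MEF on chromosome 6, at 8.43, but it rested on 44 H3K9me3 and 8 H3K4me3 reads (3.93 to 20.7). On chromosome 3 the secondary MEF ratio to H3K4me3 was 5.41 (4.50 to 6.55), against 1.35 at 20 to 23 Mb, and the MEF ratio was 4.19 (3.47 to 5.08), against 1.41 at 20 to 23 Mb. On chromosome 4 the secondary MEF ratio was 4.52, against 1.15 at 20 to 23 Mb, and the MEF ratio was 3.92, against 1.29. On chromosome 18, with 289 secondary MEF and 301 MEF H3K9me3 reads, the secondary MEF ratio was 3.57, against 1.42 at 20 to 23 Mb, and the MEF ratio was 3.34, against 1.37. Chromosome 2 showed little difference, with intervals that overlapped those of its 20 to 23 Mb bins.

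Chromosome 17 had the opposite pattern, with ratios to H3K4me3 of 0.234 in secondary MEF and 0.172 in MEF, against 0.842 in secondary MEF and 0.727 in MEF at 20 to 23 Mb. With 1 read per position the ratios were 0.429 in secondary MEF and 0.316 in MEF, against 0.848 in secondary MEF and 0.734 in MEF at 20 to 23 Mb. Its ratio to H3K27me3 was 1.71 (1.44 to 2.04) in secondary MEF, against 2.02 (1.92 to 2.13) at 20 to 23 Mb, and 1.26 (1.05 to 1.51) in MEF, against 1.74 (1.66 to 1.84). Left out together, chromosomes 5, 9 and 11 took the pooled ratio to 1.25 in secondary MEF and 1.07 in MEF. Leaving out chromosome 17 as well gave 2.65 in secondary MEF and 2.32 in MEF. The pooled ratio among the remaining chromosomes therefore depended on chromosome 17.

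**Figure D4:**
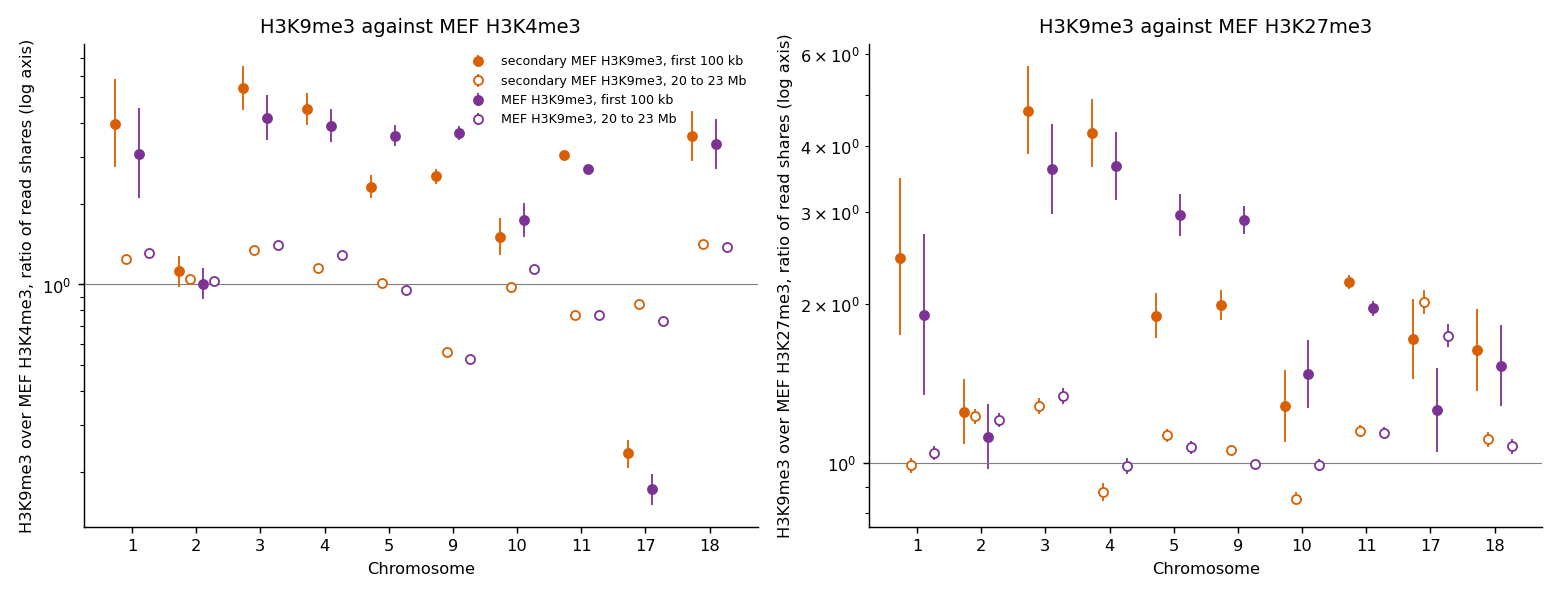
Ratio of H3K9me3 to MEF H3K4me3 (left) and to MEF H3K27me3 (right) in the same bins, for the 10 chromosomes with at least 50 reads in every pair of libraries, on logarithmic axes with 95% counting intervals; filled points are the first 100 kb and open points 20 to 23 Mb, for secondary MEF and MEF. Against H3K4me3, chromosome 3 reaches 5.41 in secondary MEF and 4.19 in MEF, and chromosome 17 lies lowest at 0.234 in secondary MEF and 0.172 in MEF.

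The H3K4me3 of chromosome 17 came from 2 bins, described here after the values were seen. The bin from 3040001 held 71 reads for secondary MEF H3K9me3, 53 for MEF H3K9me3, 46 for H3K27me3 and 1219 for H3K4me3, but the H3K4me3 reads lay at 251 distinct positions, so that its 49.3-fold was 11.1-fold with 1 read per position. Reads with 2 locations listed 163 positions there for secondary MEF H3K9me3, 156 for MEF H3K9me3, 127 for H3K27me3 and 3775 for H3K4me3. The chromosome 11 bin from 3020001 had nearly the same numbers of 2-location positions in each library, at 166 for secondary MEF H3K9me3, 162 for MEF H3K9me3, 130 for H3K27me3 and 3760 for H3K4me3. These were the highest 2 bins of that kind for H3K4me3 in the proximal region. The files do not list which positions share a read, so a pairing of the bins was not tested. The other chromosome 17 bin, from 3070001, held 31 reads for secondary MEF H3K9me3, 23 for MEF H3K9me3, 11 for H3K27me3 and 610 for H3K4me3, with 533 of the H3K4me3 reads at distinct positions. Its 24.7-fold was 23.6-fold with 1 read per position, above the other bin.

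Bins were called at a level of 2-fold or more with a one-sided Poisson value, adjusted over all bins by the Benjamini-Hochberg method, under 0.001. That value measures counting error within a library. Of all bins of the genome 9.32% were called for secondary MEF H3K9me3, 10.3% for MEF H3K9me3, 11.3% for H3K27me3 and 6.27% for H3K4me3. Of the 10672 proximal bins 954 (8.94%) were called for secondary MEF H3K9me3, 821 (7.69%) for MEF H3K9me3, 898 (8.41%) for H3K27me3 and 820 (7.68%) for H3K4me3. The proximal share was thus below the genome's for both H3K9me3 libraries and for H3K27me3, and above it for H3K4me3. Chromosome 19 alone held 183 of the 820 H3K4me3 calls, and the share without it was not computed. At 20 to 23 Mb the shares were 5.08% for secondary MEF H3K9me3, 5.47% for MEF H3K9me3, 6.37% for H3K27me3 and 5.40% for H3K4me3. In the first 100 kb 38 of 270 bins (14.1%) were called for each H3K9me3 library, 30 (11.1%) for H3K27me3 and 32 (11.9%) for H3K4me3.

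Calls coincided far more in the first 100 kb than beyond. There the 2 H3K9me3 libraries shared 35 bins, 92.1% of each list, and H3K27me3 and H3K4me3 shared 29 bins, 96.7% of the H3K27me3 list and 90.6% of the H3K4me3 list. Of the 38 calls of each H3K9me3 library there, 16 lay on chromosome 11 and 7 on chromosome 9. For H3K27me3 it was 16 and 6 of 30, and for H3K4me3 17 and 6 of 32. The overlap there thus describes those chromosomes more than the autosomes at large. From 100 kb to 3 Mb the H3K9me3 libraries shared 439 bins, 47.9% of the secondary MEF list and 56.1% of the MEF list. H3K27me3 and H3K4me3 shared 254 there, 29.3% of the H3K27me3 list and 32.2% of the H3K4me3 list. At 20 to 23 Mb the H3K9me3 libraries shared 247 bins, 49.5% of the secondary MEF list and 46.0% of the MEF list. H3K27me3 and H3K4me3 shared 164 at 20 to 23 Mb, 26.2% and 30.9% of their lists. Over the genome the H3K9me3 libraries shared 25324 bins, of 46112 called for secondary MEF and 50907 for MEF. Levels behaved alike: the correlation across bins of log2 read counts, each scaled by its library total with 0.1 added, was 0.904 to 0.946 over the 6 pairs of libraries in the first 100 kb (270 bins), 0.717 to 0.859 beyond (10402 bins) and 0.708 to 0.839 at 20 to 23 Mb (9820 bins). These bins are not independent, and they share sequence, mappability and, for 3 libraries, a flow cell.

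Over the genome 5.12% of bins were called in both H3K9me3 libraries, and 0.269% were also at least 2-fold above both other marks in both libraries. In the first 100 kb 17 of the 35 bins called in both H3K9me3 libraries (48.6%) met that second condition. Most of the 17 were close to one another on chromosomes 3, 4, 9 and 11. The share there thus describes a few places more than the autosomes at large. In the whole proximal region 33 of 474 met the condition (6.96%), at 20 to 23 Mb 20 of 247 (8.10%) and over the genome 1332 of 25324 (5.26%).

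Beyond the first 100 kb the highest regions were those of the other 2 marks. For H3K4me3 the highest bin of the proximal region lay on chromosome 11 in a region from 3790001 to 3815000. Its bin from 3810001 had 1741 reads at 1421 distinct positions, or 70.4-fold, against 4.52-fold secondary MEF H3K9me3, 2.78-fold MEF H3K9me3 and 2.98-fold H3K27me3. Regions on chromosome 19 from 5705001 to 5735000 (top bin 57.2-fold), from 5785001 to 5855000 (55.3-fold) and from 5035001 to 5075000 (50.2-fold) followed, with chromosome 16 from 4555001 to 4575000 (54.0-fold) among them. In each of these top bins both H3K9me3 libraries and H3K27me3 lay at or below 6.63-fold.

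For H3K27me3 the highest regions outside the first 100 kb lay on chromosome 11 from 4635001 to 4670000 (top bin 19.6-fold) and on chromosome 19 from 5525001 to 5575000 (top bin 18.1-fold). In the chromosome 11 top bin secondary MEF H3K9me3 was 3.35-fold and MEF H3K9me3 5.22-fold, and in the chromosome 19 top bin 3.47-fold for secondary MEF and 5.16-fold for MEF. The longest called run of any library was H3K27me3 on chromosome 11 from 3600001 to 3755000, 155 kb at a mean of 3.95-fold. The longest runs of secondary MEF H3K9me3, MEF H3K9me3 and H3K4me3 were 80, 75 and 85 kb, each over the chromosome 11 block.

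H3K9me3 had few high bins beyond 100 kb, and those given here were chosen after the values were seen. On chromosome 7 the bin from 4630001 had 15.5-fold secondary MEF H3K9me3 and 8.0-fold MEF H3K9me3, with 1.01-fold H3K27me3 and 2.51-fold H3K4me3, from 240 distinct H3K9me3 positions in secondary MEF and 142 in MEF. On chromosome 12 the bin from 3110001 had 14.2-fold H3K9me3 in secondary MEF and 8.27-fold in MEF, but its 229 secondary MEF reads lay at 39 distinct positions and its 149 MEF reads at 43. The chromosome 12 bin from 3235001 had 8.74-fold H3K9me3 in secondary MEF and 4.89-fold in MEF, under 24.6-fold H3K4me3.

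In steps of 500 kb, chromosomes 11 and 19 stayed above the library mean in all 4 libraries over all 6 steps. In the first step chromosome 11 had 8.21-fold for secondary MEF H3K9me3, 7.40-fold for MEF H3K9me3, 4.40-fold for H3K27me3 and 6.18-fold for H3K4me3. In the last it had 1.80-fold for secondary MEF H3K9me3, 1.94-fold for MEF H3K9me3, 2.27-fold for H3K27me3 and 2.92-fold for H3K4me3. On chromosome 19 MEF H3K4me3 was 1.69-fold in the first step and 7.90-fold in the last, while secondary MEF H3K9me3 was 1.21-fold in the first and 2.34-fold in the last. Chromosome 16 started low, with 0.197-fold for secondary MEF H3K9me3, 0.170-fold for MEF H3K9me3, 0.0932-fold for H3K27me3 and 0.0574-fold for H3K4me3 in the first step. The next step had 1.18-fold for secondary MEF H3K9me3, 1.09-fold for MEF H3K9me3, 0.839-fold for H3K27me3 and 2.07-fold for H3K4me3. Chromosome 9 had its only H3K9me3 level above the mean in the first step, at 1.79-fold for secondary MEF and 2.41-fold for MEF, and its other steps lay between 0.280 and 0.392-fold. Chromosome 14 was nearly uncovered throughout, at 0.0920-fold or less, with 32.3% of its bins holding a read.

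**Figure D5:**
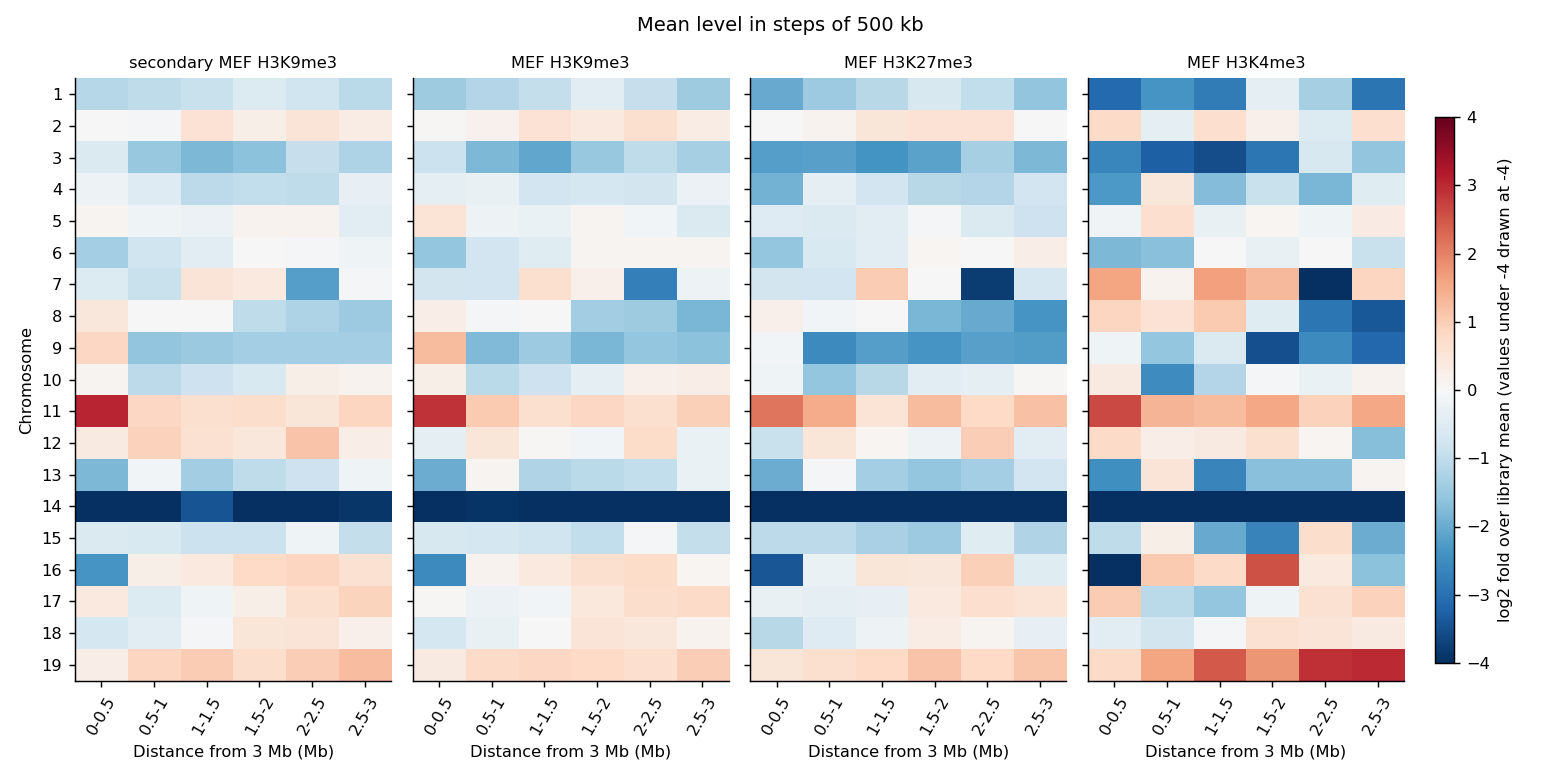
Mean level in steps of 500 kb from 3 Mb for chromosomes 1 to 19 (rows) in the 4 libraries (panels), coloured by log2 fold over the library mean, with lower values drawn at the foot of the scale. Chromosomes 11 and 19 are above the mean in every step, with chromosome 19 H3K4me3 at 7.90-fold in its last step, and chromosome 14 is nearly uncovered.

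The 2 H3K9me3 libraries differed little over the proximal region as a whole. The secondary MEF share of reads over the MEF share was 1.04 (1.03 to 1.05) there, against 0.998 at 20 to 23 Mb (0.991 to 1.01). It was 1.0 (0.979 to 1.02) in the first 100 kb, but 1.09 (1.07 to 1.12) there with 1 read per position and 1.16 (1.10 to 1.22) without chromosomes 5, 9 and 11. It was 1.10 from 100 to 500 kb, 0.998 from 500 kb to 1 Mb, 1.02 from 1 to 2 Mb and 1.07 from 2 to 3 Mb. Chromosome 12 stood apart, at 1.44 (1.40 to 1.47), but it did so along its whole length, at 1.46 (1.46 to 1.47), and at 20 to 23 Mb, at 1.51. Without chromosome 12 the proximal ratio was 1.01. The other 18 chromosomes ranged between 0.903 on chromosome 4 and 1.19 on chromosome 14, with a mean of 1.02 ± 0.0838 (SD over 18 chromosomes).

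The ratio of 1.0 in the first 100 kb was the sum of unlike chromosomes. In the blocks high in all 4 libraries secondary MEF was lower on chromosome 5, where secondary MEF had 60.4-fold and MEF had 96.2-fold, a ratio of 0.627 (0.579 to 0.679). It was lower on chromosome 9 as well, where secondary MEF had 24.3-fold and MEF had 36.5-fold, a ratio of 0.665 (0.628 to 0.703). It was higher on chromosome 11, where secondary MEF had 47.5-fold and MEF had 42-fold, a ratio of 1.13 (1.10 to 1.16). With 1 read per position the ratios were 0.850 on chromosome 5, 0.858 on chromosome 9 and 1.13 on chromosome 11. That count cannot tell PCR copies from separate molecules at the same position, since the reads carry no molecular identifiers. It brought the ratios on chromosomes 5 and 9 nearer to 1. The strands also differed there: 45.8% of secondary MEF reads and 57.0% of MEF reads in the chromosome 5 bin were on the plus strand, and 44.5% of secondary MEF and 58.7% of MEF reads in the chromosome 9 bins. The part of strand, PCR copies and flow cell in these ratios was not tested. In the first 100 kb of chromosomes 3, 4 and 17 the ratios were 1.29, 1.15 and 1.36.

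Single bins were compared where both H3K9me3 libraries together had at least 20 reads, and the rule for a difference was a ratio of at least 2-fold whose interval, at an error rate of 0.1%, left out 1. Over the genome 0.757% of compared bins were higher in secondary MEF and 0.575% lower. Of 6492 proximal bins compared, 54 were higher (0.832%) and 31 lower (0.478%), shares near the genome's. Chromosome 12 held 22 of the 54 and none of the 31. None of the 83 bins compared in the first 100 kb differed in either direction by that rule. At 20 to 23 Mb 22 bins were higher and 19 lower of 5937.

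The largest ratio was on chromosome 12, in the bin from 4940001, with 41 secondary MEF reads and 8 MEF reads, 5.72 (interval at the same error rate 1.74 to 28.1). Next was the chromosome 6 bin from 4455001, with 61 secondary MEF reads and a ratio of 5.24 (2.01 to 17.2). Those on chromosome 12 from 5480001 and 4675001 and on chromosome 4 from 5680001 had ratios of 5.21, 4.46 and 4.46. The lowest ratios were on chromosome 10 from 3125001, at 0.140 (0.00645 to 0.815) with 3 secondary MEF reads and 24 MEF reads, and on chromosome 18, also at 0.140. The chromosome 10 bins from 4775001 and 3335001 and the chromosome 4 bin from 4765001 followed, at 0.179, 0.203 and 0.203. These intervals are wide because each ratio rests on few reads.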

How the data were processed

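The deposited values are signed positions of aligned reads, other than a level: the sign gives the strand and nothing was normalised. The authors ran Bowtie against mm8, per the file headers, with options -e 70 -k 2 -m 2 -n 2 -l 36 --best --concise; its version is not given in the sources used here. Reads with 1 and with 2 locations are listed apart, and reads with more are not used here. Per the labels' protocols, chromatin had a mean size of 500 bp and was amplified over 18 cycles. Each single-location read was moved 75 bp towards its fragment centre and counted in 5 kb bins. Folds carry exact Poisson 95% intervals and ratios Clopper-Pearson intervals, computed with Python 3.11.15, numpy 2.4.6, pandas 2.3.3 and scipy 1.17.1. The rules were also run on simulated data with counting error only, which cannot show how they perform on real bins with a wider spread. Alternatives covered 1 read per position, 2-location reads at a weight of 0.5, 10 kb bins, stricter calls, bins at 40 to 43 Mb, scaling and left-out chromosomes. Named regions were the 5 highest called regions per library, the 5 bins with most H3K9me3 over the other marks, the 5 largest H3K9me3 ratios in each direction and every bin high in all 4 libraries. Members and rules were chosen with earlier results of these data known. No mm8 sequence or annotation was used here, so no sequence or gene is named.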

Additional observations from a re-analysis of the deposited data

Results flagged for a closer look

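Reads with 2 locations lie outside the main counts, and in the first 100 kb they exceeded the library's own mean for such positions. The excess was 18.9-fold for secondary MEF H3K9me3, 21.3-fold for MEF H3K9me3, 12.5-fold for MEF H3K27me3 and 29.8-fold for MEF H3K4me3, so it appeared under every antibody. For H3K4me3, 2 bins held 3775 and 3760 of the 12991 positions. No control library was used here, and the part of duplicated sequence was not tested.

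On chromosome 16 the 2 H3K9me3 libraries moved in opposite directions between the proximal bins and 20 to 23 Mb. Secondary MEF stood at 1.38-fold in the proximal bins and 1.30-fold at 20 to 23 Mb, a ratio of 1.07. MEF stood at 1.21-fold in the proximal bins and 1.35-fold at 20 to 23 Mb, a ratio of 0.898. The secondary MEF ratio divided by the MEF ratio was 1.19. With 1 library per group this difference was not tested.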

How the results depend on the processing

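No paired analysis was possible because each group holds 1 library. Of 81 results under alternatives, 33 stayed within their counting interval or 1.5 times their count, 42 moved beyond it and 6 reversed; with intervals this narrow small shifts count as moves. With 1 read per position the proximal to 20 to 23 Mb ratios were 1.19, 1.14, 1.10 and 1.37 for secondary MEF H3K9me3, MEF H3K9me3, MEF H3K27me3 and MEF H3K4me3, the folds of the first 100 kb 3.33, 3.05, 1.65 and 1.43, and the secondary MEF to MEF ratio 1.05; sets of 4 values below are for the same 4 libraries in the same sequence. With 2-location reads added the folds were 4.70, 4.79, 2.25 and 2.58 and the H3K9me3 ratios 1.23 for secondary MEF and 1.19 for MEF. Without the first 100 kb the ratios were 1.13, 1.08, 1.08 and 1.38, and without bins high in all 4 libraries 1.12, 1.07, 1.07 and 1.37. Against 40 to 43 Mb the H3K27me3 ratio was 1.05 and the H3K4me3 ratio 1.77. The next 3 settings were chosen after seeing the data. Without chromosome 11 the ratios were 1.11, 1.06, 1.001 (0.994 to 1.008) and 1.31 and the folds 1.54, 1.84, 0.753 and 0.910, those of H3K27me3 and H3K4me3 reversed. Without chromosomes 5, 9 and 11 all 4 folds reversed, to 0.837, 0.720, 0.389 and 0.671. Without chromosomes 7, 8 and 14 the ratios for secondary MEF H3K9me3, MEF H3K9me3 and H3K27me3 were 1.30, 1.27 and 1.22. Stricter calls (3-fold, 1e-06) left 2.75% of bins for secondary MEF H3K9me3, 1.59% for MEF H3K9me3 and 3.13% for H3K27me3. Without chromosome 12 the secondary MEF to MEF ratio was 1.01 and 32 bins were higher; scaling outside chromosomes 12, X and Y gave 1.05. A minimum of 50 reads left 17 lower bins. At 3-fold 43 bins were high in all 4 libraries. By construction the settings changed the bins, chromosomes or reads counted, the bins set beside the proximal ones, the scaling or the threshold; the cause in the cells was not tested. Depth, at 16.1 to 24.7 reads per bin, limits single bins: a call needed 34, 37, 40 and 50 reads, and a typical bin of the first 100 kb had far fewer. Pooled means there describe chromosomes 5, 9 and 11 more than the autosomes at large.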
